A study of Homo sapiens with 6 samples.

Results

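The comparison described here set one TREX1 knockout of CAL51 cells against another, made with a different guide RNA. CAL51 cells are a long-established line from a human breast carcinoma of the triple-negative type. TREX1 is a DNA exonuclease that degrades DNA in the cytosol. Per the series' design text, both knockouts were made by transduction with a CRISPR v2 lentivirus, which delivers Cas9 and a guide, and total RNA was then harvested. Bulk polyA RNA-seq libraries were labelled control, KO-1 and KO-2, with 2 libraries per group and 6 in all. The 4 knockout libraries, KO-1 replicates 1 and 2 and KO-2 replicates 1 and 2, made up the comparison, and the 2 control libraries served as a reference position. No drug, dose, time or batch separated the groups in the labels, and the sources used here do not give what the control cells carried. A deposited note speaks of several knockout clones but ties no library to one, and nothing says whether replicates were separate cultures, so a difference between guides and one between clones cannot be told apart. The p-values are thus set by the spread between libraries of a group, which may be technical only. Differences were taken over 13765 genes with a deposited log2 CPM of at least 0 in at least 2 of the 6 libraries, out of 14788 deposited. CPM is a read count scaled to a fixed library total, so a log2 difference of 1 is a 2-fold difference. TREX1 itself was not analysed here, so the loss of the target could not be compared between the guides.

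When TREX1 is lost, DNA that it would degrade can accumulate in the cytosol and be sensed by cGAS, an enzyme that activates STING and through it interferon and NF-kB target genes. Damaged nuclear DNA stabilises p53, which raises inhibitors of the cell cycle such as p21 (CDKN1A) and its own antagonist MDM2. The retinoblastoma protein, kept active by p21, holds down the E2F target genes that drive DNA replication. Different guides against one gene cut at different places, and the cell populations they yield can differ in how complete the knockout is and in changes unrelated to the target. A direct comparison of the guides describes such differences without naming their source.

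The libraries held 13222933 to 25785055 reads, recovered from the deposited values as whole numbers. The shallowest was KO-2 replicate 1, with 61 genes at 0 reads against 5 to 16 in the other libraries. KO-2 replicate 1 also stood apart from the rest on the second principal component, which carried 25.1% of the variance: it lay at -33.4 and the other 5 libraries at 5.18 to 8.94. On the first component (46.8%), control lay at -27.9 and -26.4, KO-1 at 22.4 and 21.5, and KO-2 between them at 2.35 and 8.12. KO-2 replicate 2 lay apart on the third component (11.2%), at 21.6 against -7.87 to -0.74 in the other 5 libraries. The 2 KO-2 libraries also differed most from each other. The SD over genes of the log2 difference between replicates was 0.387 in KO-2, 0.276 in KO-1 and 0.239 in control. Most genes and gene lists below are therefore given for each KO-2 library as well as for their mean. The keratin and adhesion genes KRT8, KRT18, KRT19, KRT7, EPCAM and CDH1 summed to 1765 to 2216 CPM over the libraries. Within that sum KRT7 was at only 0.77 to 1.47 CPM and CDH1 at 28.5 to 42.3. The mesenchymal genes VIM, CD44 and AXL summed to 390.6 to 616.5 CPM. Of the receptor genes checked for the triple-negative label, ERBB2 was measured at 163.2 to 198.8 CPM, and ESR1 and PGR had no values. Of 15 markers of leukocytes, endothelium, fibroblasts and red cells, 7 had values, and these summed to 80.4 and 83.1 CPM in KO-1, 79.4 and 84.0 in KO-2 and 85.8 and 89.9 in control. PTPRC, a leukocyte phosphatase, and PDGFRB, a fibroblast receptor, were measured at 15.4 to 20.2 and 36.4 to 46.1 CPM. None of the 6 markers tested differed between the guides at an adjusted p below 0.05. In bulk RNA, fewer cells of a kind and less RNA per cell cannot be told apart.

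The guides differed in 157 of the 13765 genes (1.14%), by a limma test with Benjamini-Hochberg adjustment at 0.05. KO-2 was lower than KO-1 in 111 genes (0.806%) and higher in 46 (0.334%). At an unadjusted p below 0.05 there were 2381 genes. The differences were small. Among called genes the median was -0.49 for those lower and 0.36 for those higher, and only OXTR, TCIM and TIMP3 changed by 2-fold or more. Over all genes tested the median difference was -0.00. In every called gene both KO-2 libraries lay on the same side of both KO-1 libraries. Such separation was common, at 6087 of the 13765 genes tested (44.2%), with KO-2 above in 3070 (22.3%) and below in 3017 (21.9%). The strongest evidence was for S100A16, which encodes a calcium-binding protein, at an adjusted p of 0.00078.

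**Figure D1:**
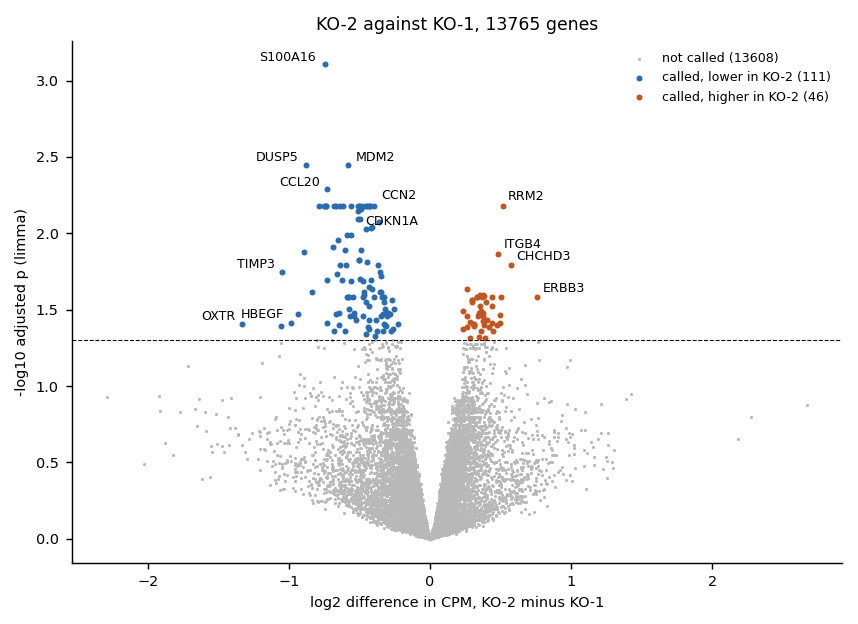
Each point is 1 of the 13765 genes tested. The horizontal axis gives the log2 difference in CPM, KO-2 minus KO-1, and the vertical axis -log10 of the adjusted p from limma, with a dashed line at 0.05. The 111 genes called lower in KO-2 (blue) reach -1.33 and the 46 called higher (orange) reach 0.76. Some grey points have larger differences than these but lie below the dashed line.

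How many genes were called depended on the libraries in the fit. None of the 157 genes changed sign in any of 17 alternative fits, but for many of these fits that was fixed in advance. In each called gene both KO-2 libraries lay on the same side of both KO-1 libraries, so leaving out 1 library could not turn the sign. Fits that change only the estimate of the spread leave the difference as it was. Without KO-2 replicate 1, 444 genes were lower and 293 higher, and these included all 157. Without KO-2 replicate 2, 1625 were lower and 1545 higher, again with all 157. These fits leave a KO-2 group of 1 library, whose spread is assumed to equal that of the other groups. Without either KO-1 library no gene was called, with 1286 or 1344 genes at an unadjusted p below 0.05. Leaving out control replicate 1 or 2 left 44 and 45 calls, of which 3 were higher in each case, since control adds to the estimate of the spread. A set of 43 genes, 41 lower and 2 higher, was called in all 14 alternatives other than the 2 without a KO-1 library and the 1 without a mean-variance trend, which ended every one of the 157 calls. The 2 higher genes were RRM2 and ITGB4.

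**Figure D2:**
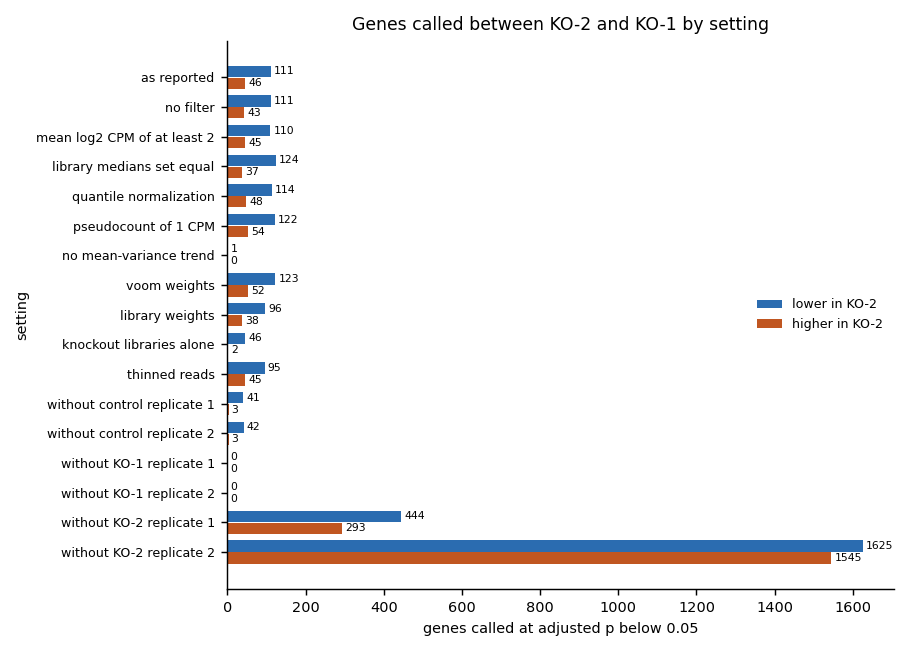
Bars give the number of genes called lower (blue) and higher (orange) in KO-2 than in KO-1 for the ways of fitting the data. The fit with a replicate block, given further below, is not drawn. The counts as reported are 111 and 46, those without a KO-1 library are 0 and 0, and those without KO-2 replicate 2 are 1625 and 1545.

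Among the targets of p53, every called gene was lower in KO-2. Of 32 tested, 8 were called lower and none higher, beside 0.806% and 0.334% over all genes. Their median difference was -0.31, with 24 of the 32 (75%) having both KO-2 libraries below both KO-1 libraries and 2 above. Over all genes the shares below and above were 21.9% and 22.3%. The 8 were the cell cycle inhibitor CDKN1A, the p53 ligase MDM2, the antiproliferative gene BTG2, the growth arrest gene GADD45A, the death receptor gene FAS, the RNA-binding protein gene ZMAT3, the stress cytokine gene GDF15 and the stress sensor gene SESN1. CDKN1A (chr6:36676463-36687332, GRCh38.p14) was at 8.27 and 8.24 log2 CPM in KO-1 and 7.65 and 7.84 in KO-2. Control stood at 6.82 and 6.75, so KO-2 lay between control and KO-1. The difference was -0.51 (SE 0.07, 95% interval -0.66 to -0.36, adjusted p = 0.0071).

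MDM2 (chr12:68808172-68850686) had 8.55 and 8.58 log2 CPM in KO-1, 7.98 and 7.99 in KO-2, and 7.15 and 7.27 in control. Its libraries agreed closely within each group, and the difference of -0.58 (SE 0.06, adjusted p = 0.0036) was a 1.49-fold lower level in KO-2. GDF15, at 7.92 and 7.91 in KO-1, was at 7.02 and 7.34 in KO-2 and 6.12 and 6.19 in control, a difference of -0.74 (SE 0.09, adjusted p = 0.0066). For GADD45A the KO-1 libraries read 6.66 and 6.65 and the KO-2 libraries 5.87 and 6.19, beside 5.15 and 5.28 in control (difference -0.63, adjusted p = 0.020). In both of these genes KO-2 replicate 1 was nearer to control than replicate 2.

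FAS was measured at 4.64 and 4.67 log2 CPM in KO-1, 3.96 and 3.90 in KO-2, and 3.15 and 3.14 in control (difference -0.73, adjusted p = 0.020). Its annotated span overlaps that of ACTA2, which was also lower, and without a stated strand setting reads in the shared stretch cannot be told apart. BTG2 fell by 0.56, ZMAT3 by 0.50 and SESN1 by 0.47 on the log2 scale. All 8 genes had KO-2 between control and KO-1. PPM1D, a p53-induced phosphatase, was at 5.91 and 6.15 in KO-1 and 5.72 and 5.68 in KO-2 and did not pass (difference -0.33, adjusted p = 0.12). The list's median against the mean of KO-1 was -0.34 in KO-2 replicate 1 and -0.16 in replicate 2. Against control, the same list had a median of 0.96 in KO-1 and 0.60 in KO-2, from comparisons that share the control libraries. The list held 6 called members in each fit without 1 control library, beside 44 and 45 calls over all genes.

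Beyond the list, and chosen after their values were seen, DRAM1, SUSD6 and EPHA2 were called lower too. DRAM1, which encodes a lysosomal protein that p53 induces, was at 7.28 in both KO-1 libraries and at 6.54 and 6.82 in KO-2, beside 5.51 and 5.63 in control. EPHA2, an ephrin receptor gene, was at 8.42 and 8.38 in KO-1, 7.82 and 8.0 in KO-2 and 7.25 and 7.31 in control. The difference was -0.60 for DRAM1 (adjusted p = 0.013), -0.49 for EPHA2 (adjusted p = 0.0070) and -0.64 for SUSD6 (adjusted p = 0.016).

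**Figure D3:**
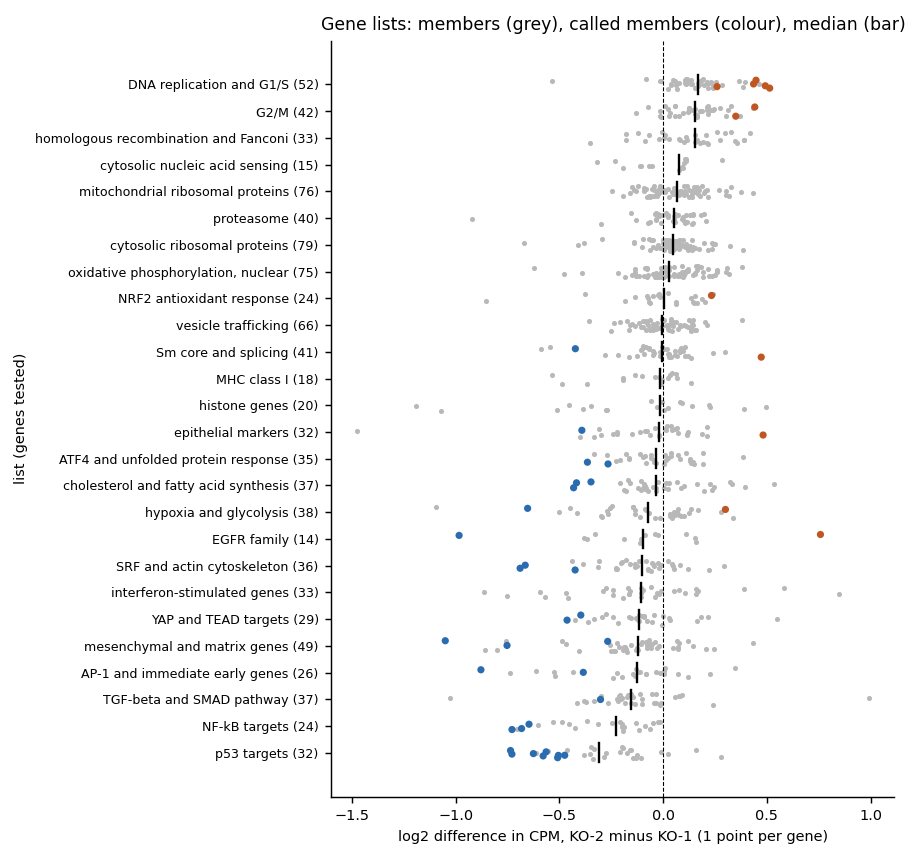
Each row is a gene list, with the number of its genes tested in brackets. Points are genes placed by their log2 difference, KO-2 minus KO-1 (grey where not called, blue where called lower, orange where called higher), and the bar is the list's median. The p53 targets have the lowest median (-0.31) and DNA replication the highest (0.17).

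NF-kB target genes, which encode chemokines, adhesion molecules and feedback inhibitors, were listed with genes of NF-kB subunits and called in the same direction. Of 24 tested, 3 were called lower, beside 0.806% over all genes, and none higher: the chemokine genes CCL20 and CXCL8 and the leukocyte adhesion gene ICAM1. All 24 differences were below 0, with a median of -0.23, and 17 of the 24 had both KO-2 libraries below both KO-1 libraries, beside 21.9% over all genes. The list's median was -0.27 in KO-2 replicate 1 and -0.20 in replicate 2. CCL20 (chr2:227813842-227817556) read 6.99 and 6.97 log2 CPM in KO-1, 6.19 and 6.31 in KO-2 and 5.20 and 5.07 in control. KO-2 held a 1.66-fold lower level than KO-1 (difference -0.73, SE 0.08, adjusted p = 0.0052). CXCL8 (interleukin 8) was at 5.13 and 5.30 in KO-1, 4.59 and 4.55 in KO-2, and 3.0 and 3.20 in control. For both chemokines the KO-2 libraries lay below both KO-1 libraries and above both control libraries. The CXCL8 difference was -0.65 (SE 0.12, 95% interval -0.91 to -0.38, adjusted p = 0.033).

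The promoter of CXCL8 is shown because it holds a perfect AP-1 site, the only 1 among the promoters of genes called lower. It spans 250 bases upstream of the annotated start, chr4:73740319-73740568 on the plus strand of GRCh38.p14, from RefSeq. Capitals mark TGACTCA, whose first base lies 137 bases before the start.
CXCL8: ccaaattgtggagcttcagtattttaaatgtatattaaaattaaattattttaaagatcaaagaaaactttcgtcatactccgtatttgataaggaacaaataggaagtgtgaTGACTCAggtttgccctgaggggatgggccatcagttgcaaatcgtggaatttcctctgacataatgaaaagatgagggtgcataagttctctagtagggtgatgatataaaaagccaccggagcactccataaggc
TGACTCA, or its reverse complement TGAGTCA, was present in 4.16% of 27305 promoters of that length and in 2.49% of those of 10789 tested genes. It was found in 1 of 95 promoters of genes called lower and in 0 of 40 of those called higher. A match is a description of the letters and not evidence of binding.

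ICAM1 stood at 6.32 and 6.38 log2 CPM in KO-1, 5.61 and 5.72 in KO-2 and 5.47 and 5.35 in control. Its KO-2 libraries were therefore close to control (difference from KO-1 -0.68, SE 0.08, adjusted p = 0.0066). Interleukin 6 (IL6) was at 3.0 and 3.40 in KO-1 and 2.64 and 2.55 in KO-2, and CXCL1 at 5.06 and 5.23 in KO-1 and 5.01 and 4.54 in KO-2. Neither passed (adjusted p = 0.16 and 0.27), and the 2 CXCL1 libraries of KO-2 differed by more than the groups did. The count of called members was 2 without either control library. CX3CL1, the membrane-anchored chemokine fractalkine, was chosen after its values were seen. It was at 4.84 and 4.68 in KO-1, 4.07 and 4.24 in KO-2 and 4.21 and 4.04 in control (difference -0.60, adjusted p = 0.044).

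The interferon arm showed no called difference between the guides. None of 33 interferon-stimulated genes tested of 45 listed was called in limma, with a median difference of -0.11, and none of 15 nucleic acid sensing genes, with a median of 0.08. Taken by KO-2 library, the interferon median was -0.10 in replicate 1 and -0.06 in replicate 2. Of the 33 interferon differences, 24 were below 0 and 9 above. Both KO-2 libraries lay below both KO-1 libraries in 12 of the 33 (36.4%) and above in 4 (12.1%). Over all genes these shares were 21.9% and 22.3%. The sensing median was -0.01 and 0.02, so its sign was not shared by the libraries. In 27 of the 33 and in all 15, the 95% interval of the difference lay within 2-fold in either direction. IFIT1, an interferon-induced RNA-binding protein gene, was at 3.12 and 3.27 log2 CPM in KO-1, 2.99 and 2.83 in KO-2 and 3.19 and 2.87 in control. OAS3, which encodes an oligoadenylate synthetase, was at 4.47 and 4.30 in KO-1, 4.45 and 4.64 in KO-2 and 5.06 and 5.01 in control. The groups overlapped for OAS3, and for IFIT1 they were separated by less than the spread within KO-2. IRF1, a transcription factor gene that both interferon and NF-kB induce, read 3.71 and 3.72 in KO-1 and 3.14 and 3.37 in KO-2 (difference -0.46, adjusted p = 0.16).

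STING1 was at 6.71 and 6.81 log2 CPM in KO-1 and 6.56 and 6.74 in KO-2, and its interval of -0.28 to 0.06 bounds any difference. The adaptor gene MAVS stood at 7.58 and 7.59 in KO-1 and 7.75 and 7.60 in KO-2 (difference 0.09, interval -0.04 to 0.23). The 18 MHC class I presentation genes also gave no call, with a median of -0.02 (0.03 in replicate 1 and -0.06 in replicate 2). The peptide transporter gene TAP1 was the lowest in p among them, at 5.30 and 5.43 in KO-1 and 4.92 and 5.08 in KO-2 (difference -0.36, adjusted p = 0.12). The fit without KO-2 replicate 2 did call members of all 3 lists, among far more calls over all genes.

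Among replication and G1/S genes, every called gene was higher in KO-2. Of 52 tested, 5 were called higher, beside 0.334% over all genes, and none lower. The median difference was 0.17, and 39 of the 52 (75%) had both KO-2 libraries above both KO-1 libraries, beside 22.3% over all genes. The 5 were RRM2, a subunit of ribonucleotide reductase, the helicase genes MCM7, CDC45 and GINS2, and the histone chaperone gene ASF1B. RRM2 (chr2:10122568-10211010) was at 7.67 and 7.70 log2 CPM in KO-1, 8.31 and 8.10 in KO-2 and 8.82 and 8.79 in control. KO-2 thus lay between KO-1 and control, 1.43-fold above KO-1 (difference 0.51, SE 0.07, 95% interval 0.37 to 0.66, adjusted p = 0.0066). CDC45 read 4.57 and 4.58 in KO-1, 5.14 and 4.98 in KO-2 and 5.63 and 5.59 in control (difference 0.49, adjusted p = 0.034).

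GINS2 was at 5.24 and 5.40 log2 CPM in KO-1, 5.81 and 5.72 in KO-2 and 5.91 and 5.77 in control. In MCM7, the more abundant of these helicase genes, the levels were 8.45 and 8.40 in KO-1, 8.73 and 8.64 in KO-2 and 8.92 and 8.89 in control. The differences were 0.45 for GINS2 (adjusted p = 0.044) and 0.26 for MCM7 (adjusted p = 0.041). ASF1B rose by 0.44, from 5.64 and 5.67 in KO-1 to 6.22 and 5.97 in KO-2. In these genes the KO-2 libraries were above KO-1, with replicate 1 further from it. E2F1, which encodes the transcription factor itself, was at 5.02 in both KO-1 libraries and at 5.32 and 5.50 in KO-2 (difference 0.38, adjusted p = 0.068), so it did not pass. The kinase gene CDK6, chosen after its value was seen, went the other way and did not pass either (difference -0.54, adjusted p = 0.057). Of the 52 differences, 48 were above 0 and 4 below. Against the KO-1 mean, the list's median was 0.23 in KO-2 replicate 1 and 0.09 in replicate 2. Its called members numbered 1 without either control library. With voom weights, 4 members were called higher and 1 lower.

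The GINS2 and MCM7 promoters are shown because they are those of called replication genes with a perfect match to an E2F site. Both windows are 250 bases upstream of an annotated start on the minus strand, GRCh38.p14, from RefSeq. They span chr16:85688955-85689204 for GINS2 and chr7:100101398-100101647 for MCM7, the latter the first of 3 windows listed. Capitals mark GCGGGAAA, the reverse complement of TTTCCCGC, starting 31 bases before the start in GINS2 and 187 in MCM7.
GINS2: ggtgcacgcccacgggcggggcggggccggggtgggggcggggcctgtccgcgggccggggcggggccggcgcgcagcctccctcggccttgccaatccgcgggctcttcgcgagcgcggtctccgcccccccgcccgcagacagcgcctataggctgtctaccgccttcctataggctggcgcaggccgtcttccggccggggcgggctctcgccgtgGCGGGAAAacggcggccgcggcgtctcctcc
MCM7: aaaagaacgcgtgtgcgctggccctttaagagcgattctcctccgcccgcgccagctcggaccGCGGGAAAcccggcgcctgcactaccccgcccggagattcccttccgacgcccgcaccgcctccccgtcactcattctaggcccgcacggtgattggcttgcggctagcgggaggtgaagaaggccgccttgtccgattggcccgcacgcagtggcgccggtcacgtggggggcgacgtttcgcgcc
TTTCCCGC or TTTGGCGC, on either strand, was present in 1.96% of all promoters and in 3.1% of those of tested genes. It occurred in 4 of 40 promoters of genes called higher and in 4 of 95 of genes called lower. GINS2 overlaps the span of GSE1, and MCM7 that of AP4M1 and a microRNA cluster, so reads in shared stretches may be counted to either.

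Of 42 genes of G2 and mitosis tested, 2 were called higher and none lower, beside 0.334% and 0.806% over all genes. The median was 0.16, and 27 had both KO-2 libraries above both KO-1 libraries, beside 22.3% over all genes. AURKA, a centrosome kinase gene, was at 6.32 and 6.22 log2 CPM in KO-1, 6.82 and 6.61 in KO-2, and 6.96 in both control libraries (difference 0.44, SE 0.08, adjusted p = 0.026). CDC20, an activator of the anaphase-promoting complex, read 7.39 and 7.33 in KO-1, 7.79 and 7.63 in KO-2 and 7.87 and 7.91 in control (difference 0.35, adjusted p = 0.030). BUB1, a spindle checkpoint kinase gene, was at 6.96 and 7.02 in KO-1 and 7.33 and 7.20 in KO-2 (difference 0.28, adjusted p = 0.069). The list's median was 0.23 in KO-2 replicate 1 and 0.07 in replicate 2. It held 0 calls without either control library.

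The 33 homologous recombination and Fanconi genes gave no call in limma, with a median of 0.15 and 16 of 33 above, beside 22.3% over all genes. The median was 0.08 in each KO-2 library taken alone. Fits without 1 KO-2 library did call members of the list, among far more calls over all genes. DNA2, a nuclease and helicase gene of DNA end resection, was at 5.37 and 5.22 log2 CPM in KO-1 and 5.65 and 5.72 in KO-2 (difference 0.39, adjusted p = 0.055). BRCA1 was at 6.16 and 5.91 in KO-1 and 6.44 and 6.22 in KO-2 (difference 0.30, adjusted p = 0.16). Several called genes outside these lists, chosen after their values were seen, act in the same processes. MYBL2, an activator of late cell cycle genes, read 7.79 and 7.70 in KO-1, 8.16 and 8.03 in KO-2 and 8.49 and 8.48 in control (difference 0.35, adjusted p = 0.025). DTYMK, the thymidylate kinase gene, rose by 0.37 from 6.06 and 6.11 in KO-1 to 6.53 and 6.39 in KO-2. SLBP, whose protein binds histone mRNA, rose by 0.38 and SMC1A, a cohesin subunit gene, by 0.27.

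**Figure D4:**
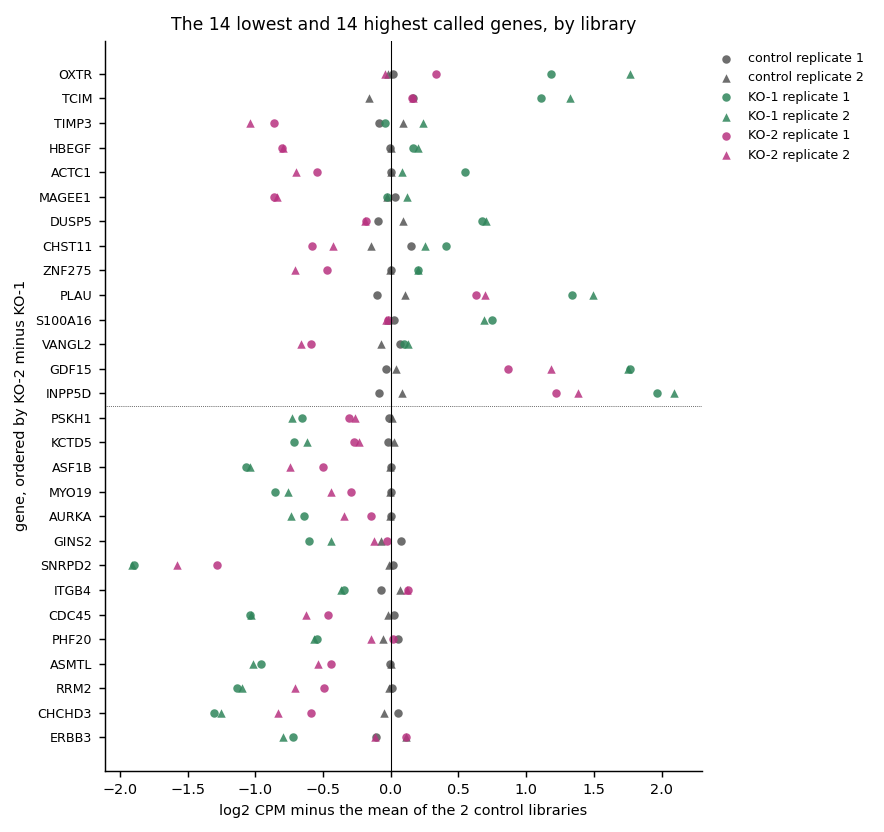
Points give each library's log2 CPM minus the control mean for the 14 lowest (top) and 14 highest (bottom) called genes whose mean log2 CPM was 1 or more, circles for replicate 1 and triangles for replicate 2. In OXTR both KO-1 libraries (green) lie above control and both KO-2 libraries (magenta) near it. In RRM2 all 4 knockout libraries lie below control, with KO-2 nearer to it.

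The largest difference was in OXTR, the oxytocin receptor gene (chr3:8741269-8769613). It was at 2.51 and 3.09 log2 CPM in KO-1, 1.66 and 1.28 in KO-2 and 1.35 and 1.31 in control. KO-2 was 2.51-fold lower than KO-1 (difference -1.33, SE 0.26, 95% interval -1.91 to -0.75, adjusted p = 0.039). The gene rested on 40 to 155 reads per library, and its KO-1 libraries differed from each other by more than its KO-2 libraries did. TCIM, a regulator linked to Wnt signalling, was at 2.90 and 3.11 in KO-1, 1.95 in both KO-2 libraries, and 1.95 and 1.63 in control (difference -1.05, adjusted p = 0.040). With 49 to 157 reads it was also among the lower expressed genes. Neither gene was called without either control library.

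S100A16 (chr1:153606883-153613137) was at 7.82 and 7.76 log2 CPM in KO-1, 7.05 and 7.04 in KO-2 and 7.09 and 7.05 in control. The KO-2 and control libraries overlapped, and only KO-1 stood higher (difference -0.74, SE 0.06, 95% interval -0.87 to -0.62). DUSP5, a nuclear phosphatase of ERK, was likewise highest in KO-1, at 6.06 and 6.09 in KO-1, 5.20 and 5.19 in KO-2 and 5.29 and 5.48 in control (difference -0.88, SE 0.09, adjusted p = 0.0036). Both genes were among the 43 called in 14 of the 17 alternatives above, the other 3 being those that ended every call. INPP5D, the gene of a phosphatidylinositol phosphatase, was at 4.39 and 4.52 in KO-1, 3.65 and 3.81 in KO-2 and 2.34 and 2.51 in control (difference -0.73, adjusted p = 0.039). In contrast to S100A16 and DUSP5, both of its KO-2 libraries lay well above both control libraries.

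A second pattern was a level below both KO-1 and control. TIMP3, an inhibitor of metalloproteinases, was at 3.42 and 3.71 log2 CPM in KO-1, 2.60 and 2.42 in KO-2 and 3.38 and 3.55 in control. KO-2 was 2.07-fold lower than KO-1 (difference -1.05, SE 0.17, adjusted p = 0.018), and no KO-2 library overlapped the other 4. HBEGF, a ligand of the EGF receptor (chr5:140332843-140346603), was at 2.63 and 2.67 in KO-1, 1.66 and 1.67 in KO-2 and 2.46 and 2.47 in control. The difference was -0.98 (SE 0.19, 95% interval -1.41 to -0.56, adjusted p = 0.039), from 40 to 142 reads. MAGEE1 was at 3.82 and 3.97 in KO-1, 2.99 and 3.01 in KO-2 and 3.87 and 3.82 in control (difference -0.90, adjusted p = 0.013).

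The zinc finger gene ZNF275 and the planar cell polarity gene VANGL2 shared that pattern. ZNF275 was at 5.54 in both KO-1 libraries, 4.87 and 4.63 in KO-2 and 5.34 in both control libraries (difference -0.79, adjusted p = 0.0066). VANGL2 was at 5.21 and 5.24 in KO-1, 4.52 and 4.45 in KO-2 and 5.18 and 5.04 in control (difference -0.74, adjusted p = 0.0066). CHST11, a chondroitin sulfotransferase gene, was at 4.39 and 4.24 in KO-1, 3.41 and 3.56 in KO-2 and 4.14 and 3.84 in control (difference -0.83, adjusted p = 0.024). It lost its call without control replicate 1, at an adjusted p of 0.052.

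Actin and smooth muscle genes, many driven by the serum response factor SRF, included further genes of this kind. Of 36 tested, 3 were called lower, beside 0.806% over all genes, and none higher: ACTA2 (smooth muscle alpha-actin), the calponin gene CNN1 and the non-muscle myosin heavy chain gene MYH9. The median was -0.10 (-0.09 in each KO-2 library alone) and 20 of 36 had both KO-2 libraries below both KO-1 libraries, beside 21.9% over all genes. ACTA2 was at 5.77 and 5.66 log2 CPM in KO-1, 5.16 and 4.89 in KO-2 and 5.55 and 5.53 in control (difference -0.69, SE 0.10, adjusted p = 0.012). CNN1 was at 4.15 and 4.07 in KO-1, 3.38 and 3.51 in KO-2 and 3.99 and 3.95 in control (difference -0.66, adjusted p = 0.034). MYH9, at 10.52 and 10.42 in KO-1, was at 10.03 and 10.06 in KO-2 and 10.08 and 10.22 in control (difference -0.42, adjusted p = 0.0066). In all 3 called genes both KO-2 libraries thus lay below both control libraries, narrowly so in MYH9. TAGLN, another smooth muscle gene, was at 7.56 and 7.47 in KO-1 and 7.23 and 7.35 in KO-2 and did not pass (difference -0.23, adjusted p = 0.12). Called members numbered 2 without either control library.

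ACTC1, the cardiac alpha-actin gene, is not on that list and was among the 14 lowest. It was at 3.92 and 3.45 log2 CPM in KO-1, 2.82 and 2.67 in KO-2 and 3.36 and 3.37 in control (difference -0.94, SE 0.18, adjusted p = 0.034). ACTA2, ACTC1 and ACTG2 have nearly the same coding sequence, and the sources used here do not give how reads that fit several of them were counted. ACTG2 was at 4.37 and 4.35 in KO-1, 3.96 and 3.88 in KO-2 and 4.76 and 4.68 in control (difference -0.44, adjusted p = 0.084). The promoter of ACTC1 is shown because it holds a perfect CArG box, the sequence that SRF binds. The window lies 250 bases upstream of an annotated start, chr15:34795550-34795799 on the minus strand of GRCh38.p14, the first of 3 windows listed by RefSeq. Capitals mark the box, which begins 109 bases before the start.
ACTC1: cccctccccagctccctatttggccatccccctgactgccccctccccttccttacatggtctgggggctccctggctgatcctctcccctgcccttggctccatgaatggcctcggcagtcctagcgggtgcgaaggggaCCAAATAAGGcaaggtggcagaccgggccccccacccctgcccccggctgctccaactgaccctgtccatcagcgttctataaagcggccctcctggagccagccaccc
The CArG box, searched on both strands, was present in 1.14% of all promoters and in 0.992% of those of tested genes. It was found in 1 of 95 promoters of genes called lower (ACTC1) and in 1 of 40 of those called higher (MYLK, the myosin light chain kinase gene). MYLK rose by 0.31, from 8.36 and 8.25 in KO-1 to 8.68 and 8.55 in KO-2 (adjusted p = 0.040).

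Targets of the coactivator YAP and its partner TEAD were listed with genes of these factors themselves. The list included 2 genes called lower among 29 tested, beside 0.806% over all genes. The median was -0.12 (-0.13 in KO-2 replicate 1 and -0.15 in replicate 2), and 18 of 29 had both KO-2 libraries below both KO-1 libraries, beside 21.9% over all genes. The called genes encode matricellular proteins of the CCN family. CCN1 was at 8.46 and 8.54 log2 CPM in KO-1, 8.03 and 8.04 in KO-2 and 7.82 and 7.81 in control (difference -0.46, SE 0.05, adjusted p = 0.0066). CCN2 was at 8.54 and 8.59 in KO-1, 8.18 and 8.15 in KO-2 and 7.88 and 7.92 in control (difference -0.40, SE 0.05, adjusted p = 0.0066). In both genes KO-2 lay between control and KO-1, and both were called without either control library.
ANKRD1, a classical YAP target, was at 5.25 and 5.37 in KO-1, 5.06 and 4.83 in KO-2 and 3.53 and 3.62 in control, and did not pass (difference -0.36, adjusted p = 0.15). No member was called without either KO-1 library, as over all genes.

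The AP-1 and immediate early genes had 2 members called lower, JUN and DUSP5, of 26 tested, beside 0.806% over all genes. The median was -0.12 (-0.13 in KO-2 replicate 1 and -0.11 in replicate 2), and 16 of 26 lay below in both libraries, beside 21.9% over all genes. JUN was at 6.62 and 6.73 log2 CPM in KO-1, 6.28 and 6.29 in KO-2 and 6.11 and 5.99 in control (difference -0.38, SE 0.07, adjusted p = 0.037). FOSL1, its partner gene, was at 4.46 and 4.45 in KO-1, 3.78 and 3.91 in KO-2 and 2.74 and 2.80 in control. The FOSL1 libraries did not overlap, but the difference of -0.61 missed the threshold (adjusted p = 0.052). JUN lost its call without either control library, which left DUSP5 as the only called member. Without either KO-1 library no member was called, as over all genes.

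Among 49 mesenchymal and matrix genes, TIMP3, PLAU and the integrin gene ITGAV were called lower and none was called higher, beside 0.806% and 0.334% over all genes. The median was -0.12 (-0.14 in KO-2 replicate 1 and -0.10 in replicate 2). PLAU encodes urokinase, a protease that activates plasminogen, and was at 6.26 and 6.42 log2 CPM in KO-1, 5.56 and 5.62 in KO-2 and 4.82 and 5.03 in control (difference -0.75, SE 0.10, adjusted p = 0.0066). PLAU thus had KO-2 between control and KO-1, whereas TIMP3 had it below both. ITGAV fell by 0.27, from 9.60 in both KO-1 libraries to 9.29 and 9.38. The list had 1 call without either control library.

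In the EGF receptor family, 1 receptor and 1 ligand were called in opposite directions among 14 genes tested. Over all genes 0.334% were called higher and 0.806% lower. ERBB3, the neuregulin receptor gene (chr12:56080108-56103505), was at 3.56 and 3.49 log2 CPM in KO-1, 4.40 and 4.17 in KO-2, and 4.17 and 4.40 in control. KO-2 was 1.69-fold above KO-1 (difference 0.76, SE 0.13, 95% interval 0.46 to 1.05, adjusted p = 0.026), the largest called increase, and its libraries overlapped control. HBEGF, given above, went the other way. EGFR itself was at 7.24 and 7.09 in KO-1, 7.07 and 7.08 in KO-2 and 6.86 and 7.12 in control, with an interval of -0.28 to 0.11. ERBB2 was at 7.35 and 7.36 in KO-1 and 7.47 and 7.55 in KO-2 (difference 0.16, adjusted p = 0.20). The neuregulin gene NRG1 was at 4.13 and 4.32 in KO-1 and 3.92 and 3.78 in KO-2 (difference -0.38, adjusted p = 0.20). Neither ERBB3 nor HBEGF was called without either control library (adjusted p of 0.071 to 0.12), and both were called without either KO-2 library.

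Among epithelial markers 1 integrin rose and 1 fell, of 32 tested, beside 0.334% and 0.806% over all genes. The median was -0.02. ITGB4, the hemidesmosome integrin beta 4 gene, was at 6.04 and 6.02 log2 CPM in KO-1, 6.51 in both KO-2 libraries and 6.31 and 6.46 in control (difference 0.48, SE 0.07, adjusted p = 0.014). ITGA6, which encodes its alpha 6 partner, was at 7.76 and 7.67 in KO-1, 7.46 and 7.19 in KO-2 and 7.53 and 7.58 in control (difference -0.39, adjusted p = 0.047). ITGB4 kept its call without either control library and ITGA6 did not. KRT8 and KRT19 were not called (differences of -0.11 and 0.12). In the TGF-beta pathway, ID3, a target gene of SMAD signalling, was the only call of 37 genes tested, at 9.09 and 9.04 in KO-1, 8.69 and 8.84 in KO-2 and 8.24 in both control libraries (difference -0.30, adjusted p = 0.033). That list had a median of -0.16 and 19 of 37 below in both libraries, beside 21.9% over all genes. Its 1 call lower stood beside 0.806% over all genes, and it held no call without either control library.

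Some of the highest genes were ones that stood well below control in both knockouts. CHCHD3, a gene of the mitochondrial cristae complex, was at 5.57 and 5.62 log2 CPM in KO-1, 6.29 and 6.04 in KO-2 and 6.93 and 6.83 in control (difference 0.57, SE 0.09, adjusted p = 0.016). SNRPD2, a Sm core protein gene of the spliceosome, was at 5.31 and 5.30 in KO-1, 5.93 and 5.63 in KO-2 and 7.23 and 7.19 in control (difference 0.47, SE 0.09, adjusted p = 0.040). In both, each KO-2 library was above each KO-1 library and below each control library, with replicate 1 nearer to control. CHCHD3 kept its call without either control library (adjusted p = 0.048 and 0.046), and SNRPD2 did not (adjusted p = 0.12). The splicing factor gene SNRNP70 was called lower, from 8.28 and 8.25 in KO-1 to 7.79 and 7.89 in KO-2 (difference -0.42, adjusted p = 0.0066). The 41 splicing genes had 1 call each way, beside 0.334% higher and 0.806% lower over all genes, and a median of -0.01.

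The other genes among the 14 highest had differences from 0.41 to 0.50. They were ASMTL, the chromatin reader gene PHF20, the mitochondrial myosin gene MYO19, the ubiquitin ligase adaptor gene KCTD5 and the kinase gene PSKH1. ASMTL was at 4.69 and 4.63 log2 CPM in KO-1, 5.21 and 5.11 in KO-2 and 5.64 and 5.65 in control (difference 0.50, adjusted p = 0.026). All 5 had KO-2 between KO-1 and control. None of the 5 was called without either control library.

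In sterol and fatty acid synthesis, 3 of 37 genes were called lower and none higher, beside 0.806% and 0.334% over all genes: the transcription factor gene SREBF2, the sterol oxidase gene MSMO1 and the fatty acid elongase gene ELOVL5. SREBF2 was at 8.14 and 8.15 log2 CPM in KO-1, 7.66 and 7.79 in KO-2 and 7.99 and 7.95 in control (difference -0.42, adjusted p = 0.0092). The list's median was -0.04. Against the KO-1 mean, the median was -0.06 in KO-2 replicate 1 and -0.03 in replicate 2. Without either control library SREBF2 was the only one still called. Of 38 hypoxia and glycolysis genes, the mitophagy receptor gene BNIP3L fell by 0.65 (adjusted p = 0.011) and the glycolytic enzyme gene GPI rose by 0.30 (adjusted p = 0.028). These were the list's only calls, beside 0.806% lower and 0.334% higher over all genes. BNIP3L was at 5.91 in both KO-1 libraries and 5.38 and 5.14 in KO-2, and GPI at 8.49 and 8.43 in KO-1 and 8.82 and 8.71 in KO-2. BNIP3L kept its call without either control library and GPI did not.

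Of 35 genes of the ATF4 and unfolded protein responses, the amino acid transporter gene SLC7A5 fell by 0.36 (adjusted p = 0.0084) and the disulfide isomerase gene PDIA6 by 0.27 (adjusted p = 0.043). SLC7A5 was at 10.03 and 9.94 log2 CPM in KO-1, 9.58 and 9.66 in KO-2 and 9.44 and 9.48 in control. Of 24 NRF2 targets, TKT, the transketolase gene, was the only call, up by 0.23 (adjusted p = 0.032). Over all genes 0.806% were called lower and 0.334% higher. TKT and PDIA6 lost their calls without either control library and SLC7A5 kept its call.

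No member was called by limma among 79 cytosolic ribosomal protein genes (median 0.05), 76 mitochondrial ribosomal protein genes (0.07), 75 nuclear oxidative phosphorylation genes (0.03), 40 proteasome genes (0.05), 20 histone genes (-0.02) and 66 vesicle trafficking genes (-0.00). The interval of the difference lay within 2-fold for 76 of 79, all 76, 73 of 75, 39 of 40, 14 of 20 and all 66 of them. The ribosomal protein gene RPL27 had the smallest p of its list, at 6.90 and 6.83 log2 CPM in KO-1, 7.39 and 7.11 in KO-2 and 7.51 and 7.54 in control (difference 0.39, adjusted p = 0.052). Fits without 1 KO-2 library did call members of these lists, among far more calls over all genes. With all 6 libraries, 1 cytosolic ribosomal protein gene was called higher under quantile normalization, a pseudocount of 1 CPM, voom weights, library weights and thinned reads. The pseudocount fit also called 1 histone gene lower. In the order given first, the medians against the KO-1 mean were 0.10, 0.10, 0.05, 0.07, -0.09 and 0.04 in KO-2 replicate 1. In replicate 2 they were 0.001, 0.008, 0.03, 0.02, -0.02 and -0.02.

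Trafficking genes outside that list were nevertheless among the called genes, and these were chosen after their values were seen. STXBP3, a regulator of vesicle fusion, was at 5.72 in both KO-1 libraries, 5.21 and 5.06 in KO-2 and 5.75 and 5.81 in control (difference -0.59, adjusted p = 0.010). RAB22A, an endosomal small GTPase gene, was at 5.92 and 6.01 in KO-1, 5.35 and 5.45 in KO-2 and 5.77 and 5.83 in control (difference -0.56, adjusted p = 0.010). The Golgi GTPase gene ARF3 was at 7.28 and 7.33 in KO-1, 6.88 and 6.76 in KO-2 and 7.28 and 7.23 in control (difference -0.49, adjusted p = 0.0066). In these 3 genes both KO-2 libraries lay below the other 4 libraries, which were close to each other. DCTN5, a dynactin subunit gene, fell by 0.50, GIPC1, a myosin VI adaptor gene, by 0.51 and OSTM1, a lysosomal protein gene, by 0.56. All 6 were among the 43 genes called in 14 of the 17 alternatives, the other 3 being those that ended every call.

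The position of control divided the called genes. In 85 of the 157 (54.1%), 48 lower and 37 higher, KO-2 lay between KO-1 and control. Over all tested genes that share was 51.1%. In 63 (40.1%, beside 19.7% over all tested genes) control lay between the guides, 54 lower and 9 higher. Of those 54, control was nearer to KO-1 in 31 (TIMP3, HBEGF, VANGL2 and ARF3 among them) and nearer to KO-2 in 23 (S100A16 and DUSP5 among them). All 9 that were higher, ITGB4 among them, had control nearer to KO-2. In the last 9 genes (5.73%, beside 29.1%) KO-1 lay between KO-2 and control, as in STXBP3, and all 9 were lower. Which of the guides is displaced depends on the same control libraries in each case, so these positions describe the levels and are not independent of one another.

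The KO-2 libraries agreed in direction for every called gene, with replicate 1 further from KO-1 in 102 of the 157 and replicate 2 in 55. Replicate 1 was further in 39 of the 46 higher genes and in 63 of the 111 lower ones. The median size of the difference from the KO-1 mean was 0.468 in replicate 1 and 0.411 in replicate 2 over the called genes, beside 0.177 and 0.123 over all tested genes. RAVER1, an RNA-binding protein gene chosen here for its spread, was at 6.49 and 6.35 log2 CPM in KO-1 and 5.47 and 6.01 in KO-2, with control at 6.03 and 6.11. Its difference of -0.68 (adjusted p = 0.044) came mostly from replicate 1. What sets the KO-2 libraries apart was not tested.

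**Figure D5:**
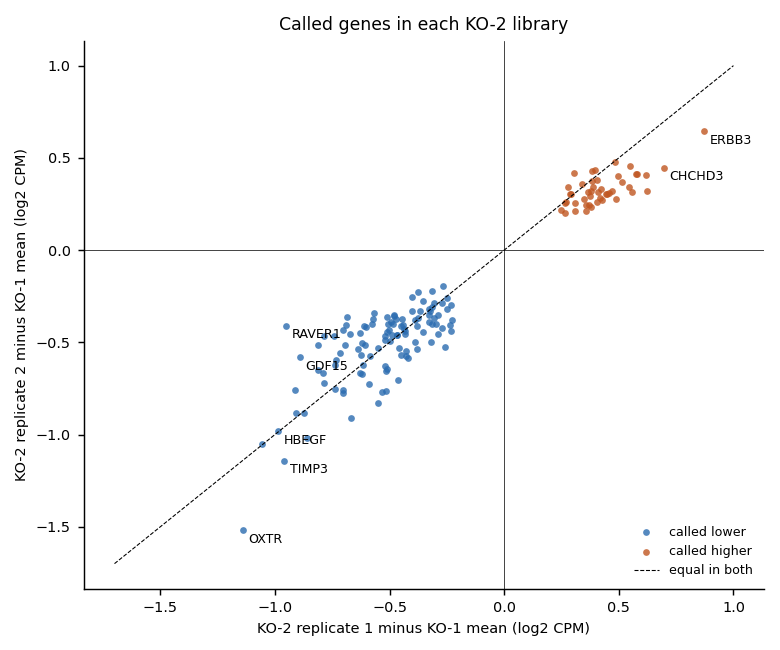
Each point is 1 of the 157 called genes, placed by its log2 CPM in KO-2 replicate 1 (horizontal) and replicate 2 (vertical) minus the KO-1 mean. Genes called lower (blue) and higher (orange) each share a sign in both libraries, and most orange points lie below the dashed line of equal differences, since replicate 1 was further from KO-1 in 39 of 46.

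The authors' deposited table of the same comparison called 220 of its 14788 genes at a false discovery rate below 0.05, 75 higher and 145 lower in KO-2. Of the 157 genes called here, 156 (99.4%) were called in the authors' deposited table, and they made up 70.9% of its calls. No called gene had the other sign there. Both analyses use the same 6 libraries and do not count as separate evidence.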

How the data were processed

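Gene expression was measured in 6 bulk polyA RNA-seq libraries of CAL51 cells, 2 each of control, KO-1 and KO-2. Per the submitters' processing notes, tools named for the series include fastp, STAR 2.7, featureCounts from Subread 2.0 and edgeR, with hg38 as the human build, and the sources used here do not give which tool made which file. The values in the deposited expression table are log2 CPM, to which the authors had added a prior of about 0.102 CPM, as its lowest values show. A second table by the authors holds their log2 fold changes and false discovery rates. The deposited p-values and q-values were used only for a side by side count. Whole read numbers came back for 100% of the deposited log2 CPM values at a tolerance of 0.01 read, which gave the depths. A test on edgeR counts was not run, because the deposited unit is log2.

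Genes with log2 CPM of at least 0 in at least 2 of 6 libraries were kept (13765 of 14788). A group-means model was fitted to the log2 CPM of all 6 libraries with limma 3.58.1 in R 4.3.3, with a mean-variance trend and 3 residual degrees of freedom (prior 8.02). The contrast was KO-2 minus KO-1, two-sided, and a gene was called where its p-value, adjusted by Benjamini-Hochberg across the 13765 genes, was below 0.05. Genes named were drawn from the 14 highest and 14 lowest called, with non-overlapping groups and mean log2 CPM of at least 1. From each list they were drawn from the first 4 tested, up to 4 with the smallest p, and the called members. Not every gene under that rule is given. Among those left out were ISG15, MX1, FOS, JUNB and MRTFA, with differences of -0.17, -0.10, 0.005, -0.11 and -0.32, none called. Most other genes are marked as chosen after their values were seen. The comparison, members and gene lists were chosen with earlier results of these data known. Positions and promoters came from RefSeq on GRCh38.p14 by gene symbol. Of the 157 called genes, 89 overlap the span of another RefSeq gene, and 33 that of another tested gene. The sources used here do not give the strand setting of the counting. The mouse and single-cell data of the series were not used here.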

Additional observations from a re-analysis of the deposited data

How the results depend on the processing

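As reported, 46 genes were higher and 111 lower in KO-2 than in KO-1. Without a mean-variance trend they were 0 higher and 1 lower, with 1954 genes at an unadjusted p below 0.05, and that 1 gene was not among the 157. With the knockout libraries alone they were 2 and 46. Leaving out 1 library gave 0 to 1545 higher and 0 to 1625 lower, the lowest without either KO-1 library and the highest without KO-2 replicate 2. The cause was not tested. No filter gave 43 and 111, a mean log2 CPM of at least 2 gave 45 and 110, library medians set equal 37 and 124, quantile normalization 48 and 114, a pseudocount of 1 CPM 54 and 122, voom weights on the recovered reads 52 and 123, library weights 38 and 96, and reads thinned to the shallowest library 45 and 95. Of 103 genes followed across the fits, 79 were called as reported, and none of the 103 changed sign in any of these fits or in those without 1 library. The 103 do not hold every gene named above, and small differences could turn. KRT18, at 8.91 log2 CPM in both KO-1 libraries, was above them in KO-2 replicate 1 (9.01) and below in replicate 2 (8.86). For the 79 called genes, leaving out 1 library could not change the sign.

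With the replicate number as a replicate block, 19 genes were higher and 86 lower. Of the 157 genes, 101 were called in that fit, and 22 of the 79 named were not. The labels do not say that replicate numbers mark a shared culture or day, and same-numbered libraries did not deviate together, with correlations of -0.05 between control and KO-1, 0.04 between control and KO-2 and -0.04 between KO-1 and KO-2. The numbers were therefore not taken to pair the samples.

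With 2 libraries a group, an exact permutation test of KO-2 against KO-1 cannot reach a p below 0.05, so every call rests on the variance shared across genes and groups. Depth limits the low genes: 3 reads correspond to 0.115 to 0.230 CPM in the libraries, and OXTR rested on 40 to 155 reads.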

Other observations

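By chromosome, the median difference between the guides ranged from -0.02 to 0.03 over 23 chromosomes, for 13646 of the tested genes (99.1%) that matched a chromosome by symbol. In KO-2 replicate 1 against the KO-1 mean it ranged from -0.04 to 0.05, and in replicate 2 also from -0.04 to 0.05. No whole chromosome was therefore displaced between the guides by an amount near the median called difference of 0.44. Shifts of parts of a chromosome were not measured.

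A few called genes outside the lists are given here, chosen after their values were seen, and they form no tested group. SLC30A1, a zinc exporter gene, was at 7.50 and 7.42 log2 CPM in KO-1, 6.95 and 7.06 in KO-2 and 6.67 and 6.71 in control (difference -0.46, adjusted p = 0.0093). The zinc importer genes SLC39A10 and SLC39A6 also fell, by 0.35 and 0.34. SLC39A10 had 8.20 and 8.25 in KO-1, 7.93 and 7.82 in KO-2 and 7.67 and 7.65 in control. ATP1B1, the beta subunit of the sodium pump, was at 8.78 and 8.86 in KO-1, 8.39 and 8.25 in KO-2 and 8.43 and 8.38 in control (difference -0.50, adjusted p = 0.0066). NRAS, a small GTPase gene, was at 7.65 and 7.64 in KO-1, 7.33 and 7.25 in KO-2 and 7.66 and 7.65 in control (difference -0.36, adjusted p = 0.018), so that KO-2 alone stood low. METTL14, a subunit of the RNA adenosine methyltransferase, was at 5.20 and 5.24 in KO-1, 4.76 and 4.52 in KO-2 and 5.05 and 5.04 in control (difference -0.58, adjusted p = 0.026). Of these, SLC30A1 and ATP1B1 were called without either control library, and NRAS, METTL14, SLC39A10 and SLC39A6 were not.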
